A study of Xenopus tropicalis with 2 samples.

Results

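Ionotropic glutamate receptors are the subject here, followed through 9 genes of Xenopus tropicalis: the AMPA receptor genes gria1, gria2, gria3 and gria4, the NMDA receptor genes grin1, grin2a and grin2b, and the kainate receptor genes grik1 and grik2. Their peaks were the entries of the deposited peak list assigned to 1 of these genes, by the NCBI gene number in the description or else by the deposited name. By this rule 19 of the 6302 listed peaks belonged to 8 of the 9 genes. The list came from 1 chromatin immunoprecipitation (ChIP) library made with an antiserum to Xenopus thyroid hormone receptors (TRs), set against 1 input library without precipitation. Both were made from wild-type tadpoles at Nieuwkoop-Faber (NF) stage 62, from the part of the brain with the preoptic area, hypothalamus and thalamus, and no hormone treatment or genetic change is in the labels. With a single library in each group, the groups could not be compared by a test, and every value below is a description. The dissected region mixes cell types, the labels do not give how many tadpoles were used, and the antiserum is labelled for TRs without a subtype.

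Ionotropic glutamate receptors are cation channels built from 4 subunits that open when glutamate binds, and they carry most fast excitatory transmission in the vertebrate brain. AMPA receptors give the fast current, NMDA receptors pass calcium once depolarization removes a magnesium block and serve in synaptic plasticity, and kainate receptors act on both sides of the synapse. TRs are nuclear receptors that sit on DNA with or without hormone, and NF stage 62 lies in metamorphic climax, when thyroid hormone drives remodelling of the tadpole brain.

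Peaks were listed for all 4 AMPA receptor genes, for grin1 and grin2b, and for grik1 and grik2, while grin2a had no listed peak. The 8 of 9 genes (88.9%, exact 95% binomial interval 51.8 to 99.7%) stood beside 29.9% of the 15628 named protein-coding genes in the reference table and 34.6% of the 3179 whose RefSeq length lay within that of the 9 genes (51.0 to 303 kb). At least 2 peaks were listed for 6 of the 9 genes, against 10.8% of the genes in that length range. Genes in the range were shorter, with a median RefSeq length of 85.5 kb against 201 kb for the 9 genes. A longer gene has more room for peaks, and neither share was adjusted for length within the range. The 9 genes were put together with earlier results of these data known, so their high share is not independent evidence. All 18 ionotropic glutamate receptor genes, which include the ones left out of that choice, held peaks in 12 cases (66.7%, 41.0 to 86.7%), of which 8 are the chosen genes.

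The peaks were of modest height. Their fold over background at the summit, a linear ratio from the authors' peak caller, had a median of 3.78 (range 2.87 to 5.86), against 4.06 over all peaks. Only 5 of the 19 exceeded that overall median, and none lay in the top 10%. The fold and p-value of each peak gave back its ChIP fragments, from 13 to 34 at the summit (median 19, against 24 over all peaks), over an expected background of 2.46 to 6.14 fragments. The fold has 1 added to both the fragments and the background, so 24 fragments over 3.27 give 5.86. It is thus lower than the plain ratio of the 2, and more so where the background is low. The interval limits carry the same added 1. Intervals given with folds are exact 95% Poisson intervals of those ChIP fragments; they cover counting error only, take the background as exact and treat fragments as separate molecules.

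**Figure D1:**
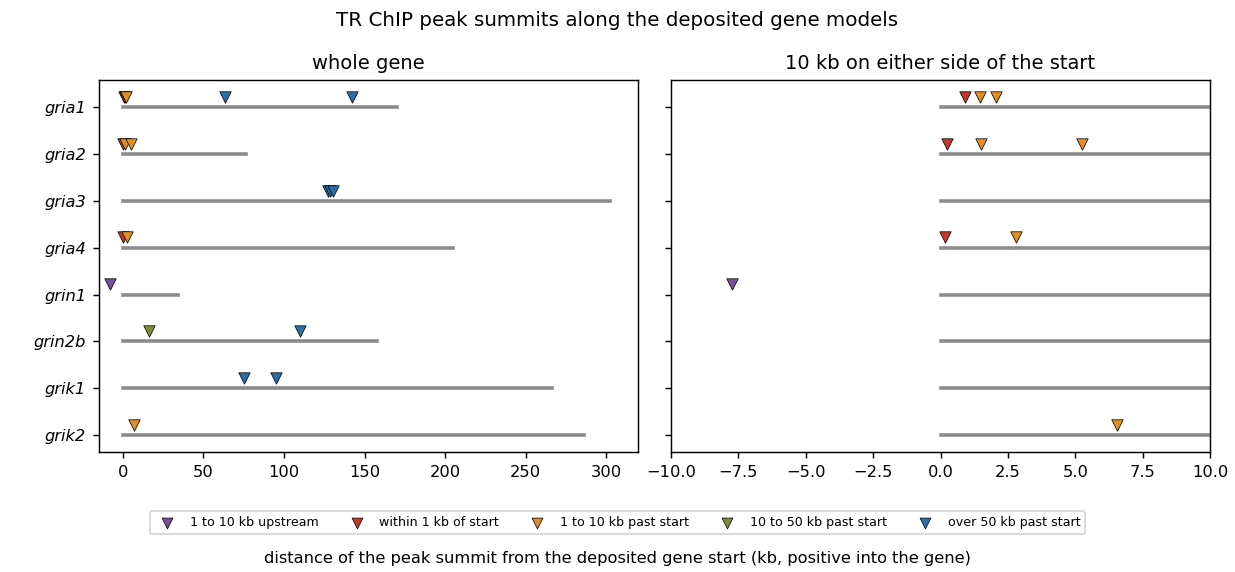
Each grey line is a deposited gene model with its start at 0 kb, and each triangle is the summit of 1 peak, coloured by its distance class; the right panel enlarges the 10 kb on either side of the start. The gria1, gria2 and gria4 genes have groups of peaks just inside the start, the 3 gria3 peaks sit together near 127 to 130.2 kb, and both grik1 peaks lie over 50 kb into the gene.

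Among the AMPA receptor genes, gria2 had the highest fold of all 19 peaks. This gene encodes GluA2, the subunit that makes AMPA receptors nearly impermeable to calcium once its transcript is edited. Its model lies on chromosome 1 (44092476 to 44169016, minus strand, 76.5 kb). The entry carried the name dgcr8 and was recognised by its description and NCBI gene number. The widest peak, 1595 bp (44168106 to 44169700), spanned the start, with its summit 238 bp into the gene, 34 ChIP fragments over a background of 6.14, and a fold of 4.90 (3.44 to 6.79). The next, at 44167226 to 44167682 with its summit 1495 bp in, had 24 fragments over 3.27 and a fold of 5.86 (3.84 to 8.60). The third, at 44163659 to 44163869 and 5.23 kb in, had 15 fragments over 3.05 and a fold of 3.95 (2.32 to 6.36). All 3 summits thus lay in the first 6.84% of the gene. The fold intervals of these 3 peaks overlapped one another, so the order of their folds is not settled. The −log10 adjusted p-value was 11.2 at the start and 9.97 at the second peak, the highest of the 19, and 3.71 at the third.

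The gene with the most peaks was gria1, which encodes GluA1, a subunit known for its activity-dependent delivery to synapses. It had 5 peaks on chromosome 3 (3654129 to 3824187, minus strand, 170.1 kb). The first 3 had summits within 1.17 kb of each other, and their folds were lower with each step into the gene. At 903 bp past the start (3823141 to 3823431) the fold was 5.11 (3.35 to 7.51) from 24 fragments. At 1.48 kb (3822555 to 3822924) it was 4.06 (2.74 to 5.80) from 28 fragments over a higher background. At 2.08 kb (3821891 to 3822185) it was 2.87 (1.72 to 4.56) from 16 fragments, the lowest fold of the 19 peaks. The intervals of these 3 peaks overlapped. The other pair lay deep in the gene, at 63.4 kb (3760667 to 3760884; 3.52, 2.26 to 5.25; 22 fragments) and 142 kb past the start (3681561 to 3681771; 3.20, 1.85 to 5.23; 14 fragments). The peak at 63.4 kb was the single one of the 19 that was also paired with another gene entry, a U4 spliceosomal RNA gene inside gria1, whose start lay nearer to the summit. The −log10 adjusted p-value was only 2.01 at the 2.08 kb peak and 2.27 at the 142 kb peak. Among peaks at or above the median of all peaks for this measure, gria1 and gria2 each had 2.

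For gria4, the GluA4 gene, both peaks lay near the start on chromosome 2 (157635715 to 157840900, minus strand, 205 kb). The first, 153 bp into the gene (157840653 to 157840863), had the smallest distance to a start among the 19, yet a fold of only 3.38 (2.10 to 5.19) from 19 fragments. The second, at 2.81 kb (157838054 to 157838402), had a fold of 3.41 (2.005 to 5.49) from 15 fragments. The folds of this pair were nearly equal and below those at the starts of gria1 and gria2, although the intervals of all 3 start peaks overlapped.

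The gria3 gene, which encodes GluA3, had no listed peak near its deposited start. Its model lies on chromosome 8 (27229059 to 27531488, plus strand, 302 kb), and its 3 peaks formed a group 127 to 130.2 kb in. In order from the start they lay at 27356147 to 27356377 (3.38, 2.10 to 5.19; 19 fragments), 27357298 to 27357776 (3.89, 2.29 to 6.26; 15 fragments) and 27359154 to 27359364 (3.67, 2.19 to 5.83; 16 fragments). The folds were alike within their intervals. The first had the same fragment count and background as the start peak of gria4.

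How deep the gria3 group lies depends on the gene model. RefSeq's gria3 in assembly UCB_Xtro_10.0 measured 177 kb, so the deposited model was 171% of that length. If both models end at the same place, the RefSeq start would lie 1.65, 2.99 and 4.61 kb before the 3 gria3 summits. Counted in the same way, the groups would run from 4.75 to 5.92 kb past the RefSeq start in gria1 and from 3.04 to 8.03 kb in gria2. The gria4 group would run from -4.11 to -1.44 kb, before that start. The gria1 range would thus lie inside that of gria2, the gria3 and gria2 ranges would overlap in part, and the gria4 group would lie apart. Whether the ends coincide was not tested, because the deposited coordinates belong to another build. The deposited lengths of 5 of the 8 genes with a peak (gria1, gria2, gria4, grik1 and grik2) lay within 10% of RefSeq's, as did those of 65.5% of 4837 genes matched to the table. The other exceptions were grin1, at 66.7% of the RefSeq length, and grin2b, at 57.8%.

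The NMDA receptor genes held fewer listed peaks than the AMPA receptor genes, 3 against 13, but they are also fewer genes. The counts depend on the deposited models, at 66.7% of the RefSeq length for grin1, 57.8% for grin2b and 171% for gria3. Peaks paired with no gene were left out. Within 100 kb, 2 lay before grin2b, 1 before and 1 past gria1, and 1 past gria2. No such search was made around grin2a, which had no row and so no deposited position. Whether the difference would hold with other gene models was not tested. The grin1 gene encodes GluN1, the subunit that every NMDA receptor contains. Its peak lay on the unplaced scaffold KV460602.1 (79487 to 79757), 7.74 kb upstream of the start of a 34.0 kb model (37845 to 71864, minus strand), with 22 fragments and a fold of 3.43 (2.21 to 5.12). It was the single peak of the 19 with its summit outside a gene body. RefSeq's grin1 was 17.0 kb longer than this model, so whether the peak lies before or within the full gene was not settled.

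The grin2b gene encodes GluN2B, the subunit of slow NMDA receptors that are common in the developing brain. It had 2 peaks on chromosome 4 (104171076 to 104328946, minus strand, 158 kb). The higher, 16.1 kb into the gene (104312608 to 104313100), had 27 fragments over 4.92 and a fold of 4.73 (3.18 to 6.81), the fourth highest of the 19. The lower, 109.7 kb in (104219086 to 104219562), had 20 fragments over 6.14 and a fold of 2.94 (1.85 to 4.46). Neither lay near the deposited start, and RefSeq's gene was 115 kb longer than the deposited model. For grin2a, which encodes GluN2A, the subunit that is known from mammals to become common as synapses mature, no peak was listed. RefSeq's grin2a, at 303 kb, was the longest of the 9 genes. A peak at 1 of the 336 gene entries (6.36% of 5285) that had no usable name would have been missed.

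The kainate receptor genes had 3 peaks, all inside the genes and none within 1 kb of a start. The grik1 gene, for GluK1, had a pair of them on chromosome 2 (12076900 to 12343498, plus strand, 267 kb). One lay 74.9 kb in (12151637 to 12152005; 4.04, 2.29 to 6.71) and rested on 13 fragments, the fewest of the 19, over the lowest background, 2.46. The other lay 95.2 kb in (12171893 to 12172219; 4.17, 2.49 to 6.63; 16 fragments). Another 2 deposited rows named grik1 were described as the ATP-binding cassette gene abcg1 and were left out. The grik2 gene, for GluK2, had 1 peak on chromosome 5 (78305927 to 78592045, minus strand, 286 kb). This peak, 670 bp wide (78585315 to 78585984) and 6.55 kb past the start, had 26 fragments and a fold of 3.78 (2.52 to 5.47).

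**Figure D2:**
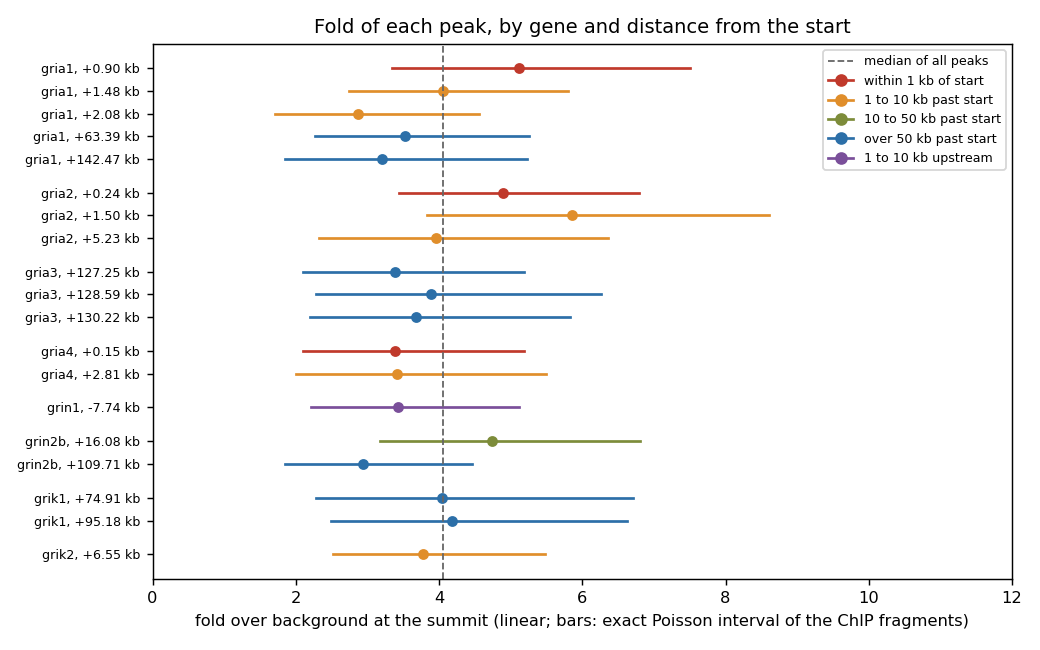
Points are folds over background at the summit for the 19 peaks, labelled by gene and distance from the deposited start, and bars are exact 95% Poisson intervals of the ChIP fragments. The intervals of all 19 peaks include the median of all peaks, 4.06, and the points over 50 kb past the start lie between 2.94 and 4.17.

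The comparison of promoter with deep intragenic peaks came next. A promoter peak had its summit within 1 kb of the deposited start, and a deep intragenic peak had it inside the gene over 50 kb past the start. There were 3 promoter peaks (gria1, gria2 and gria4) and 8 deep intragenic peaks (3 in gria3, 2 each in gria1 and grik1, and 1 in grin2b). Of the remaining 8, 6 lay 1 to 10 kb past the start, 1 at 10 to 50 kb and 1 upstream. The gria1 peak at 903 bp was the one just inside the promoter limit, and those at 1.48 kb in gria1 and 1495 bp in gria2 were just outside.

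Promoter peaks were held by 3 of the 9 genes, against 21.6% of named genes in the length range, and deep intragenic peaks by 4 of the 9, against 7.42%. The genes in that range were shorter, so they had less room for a deep peak: the median RefSeq length was 201 kb for the 9 genes and 85.5 kb for those in the range. Counted by peak, 15.8% of the 19 (3.38 to 39.6%) were promoter peaks, against 39.3% of 2149 pairs of a peak with another gene of at least 50 kb. Deep intragenic peaks made up 42.1% (20.3 to 66.5%), against 28.3%. The 50 kb limit used deposited lengths, by which grin1, at 34.0 kb, would fall short, though its peak is among the 19. The other genes of at least 50 kb were not matched in length to the 9 genes. Those barely over 50 kb have almost no room for a deep peak. Peaks 1 to 10 kb past the start made up 31.6% (12.6 to 56.6%), against 9.77%. Peaks of the same gene are not independent, so these intervals are too narrow, and no test of the differences was made. With the 5 genes whose deposited length lay within 10% of RefSeq's, the 13 peaks held 3 promoter and 4 deep intragenic ones, since the gria3 group and the grin2b peak dropped out. The deep intragenic peaks thus fell from 8 of 19 to 4 of 13, and the 42.1% rests in part on gene models whose length differed from RefSeq's. A 10% limit on length is too wide to check the 1 kb promoter class, which also rests on the deposited starts. If both models end at the same place, the promoter summits would lie at 4.75 (gria1), 3.04 (gria2) and -4.11 kb (gria4) from the RefSeq start. Whether the ends coincide was not tested.

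**Figure D3:**
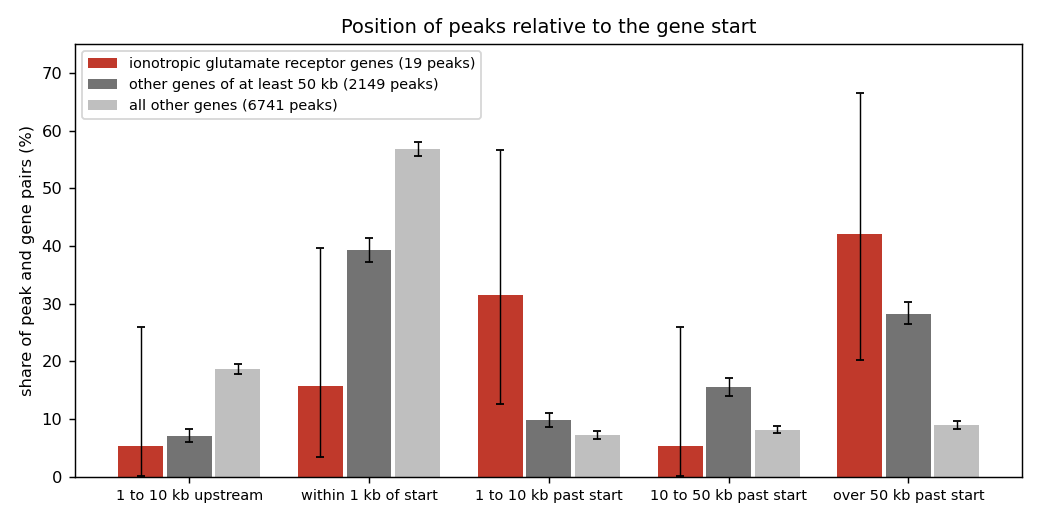
Bars give the share of peak and gene pairs in each class of distance from the gene start, for the 9 receptor genes, for other genes of at least 50 kb and for all other genes, with exact 95% binomial intervals. The receptor genes have 15.8% of their peaks within 1 kb of the start and 42.1% over 50 kb past it, against 39.3% and 28.3% in other long genes. The other long genes were not matched in length to the receptor genes. With only receptor genes whose deposited length lay within 10% of RefSeq's, 13 peaks remained, 3 of them promoter and 4 deep intragenic. That limit is too wide to check the class within 1 kb of the start.

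Promoter peaks of the receptor genes were higher on the median than deep intragenic ones, with overlapping ranges. Their folds were 5.11, 4.90 and 3.38 (median 4.90), and those of the 8 deep intragenic peaks ran from 2.94 to 4.17 (median 3.60). Median ChIP fragments at the summit were 24 at promoters and 16 deep in the genes, over median backgrounds of 4.92 and 3.66. Other genes of at least 50 kb had medians of 3.89 at 845 promoter pairs and 4.04 at 608 deep intragenic pairs, the other order, and this contrast was not tested. Only gria1 held both kinds. Its promoter fold of 5.11 stood above its deep folds of 3.52 and 3.20, and the 3 intervals overlapped.

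The median −log10 adjusted p-value was 8.45 for the promoter peaks and 3.47 for the deep intragenic peaks, against 5.81 and 5.08 in other long genes. This measure also grows with fragment number, and the kinds overlapped: the gria4 promoter peak had 3.50, the same as a deep gria3 peak and less than 3 other deep intragenic peaks. All 8 deep intragenic peaks lay below the median of all peaks, 5.82, as did the promoter peak of gria4. Above it were 6 of the 19 peaks: the first 2 each of gria1 and gria2, the grin2b peak at 16.1 kb and the grik2 peak. These belonged to 4 of the 9 genes, against 18.2% of named genes in the length range with a peak above that median. The genes in the range were shorter on the median than the 9 genes.

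**Figure D4:**
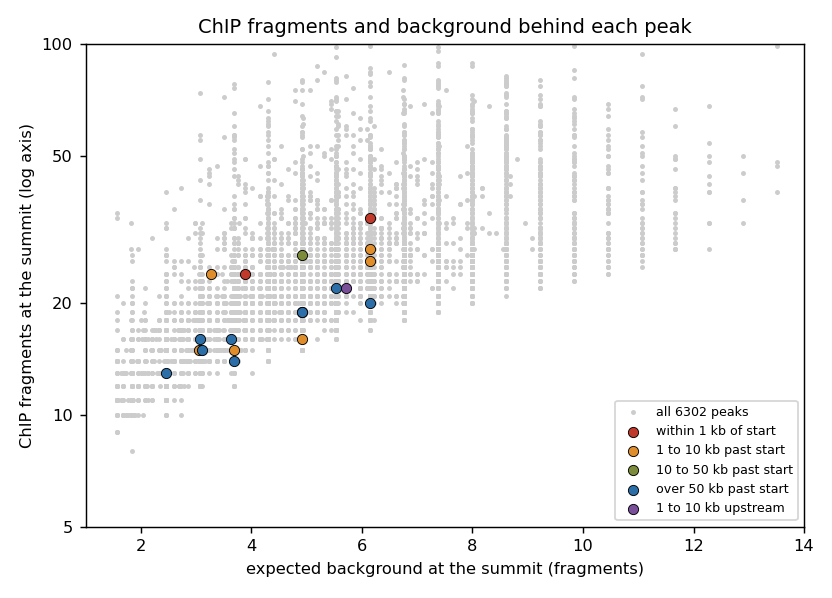
Each grey point is 1 of the 6302 peaks by its expected background and its ChIP fragments (log axis), and coloured points are peaks of the receptor genes; 28 peaks lie outside the axes, and the gria4 start peak coincides with a gria3 peak. Receptor gene peaks have 13 to 34 fragments, and none lies in the upper part of the cloud.

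Peaks of these genes often came in close groups. The distance of 5 kb was chosen after the values were seen. Within it, 11 of the 19 peaks (57.9%, 33.5 to 79.7%) had another peak of the same gene. Among the 2149 pairs at other long genes the share was 27.0%. A gene with 1 peak cannot have such a neighbour. The 19 peaks lay in 8 genes and the 2149 pairs in 1326, so the shares are not like for like. Close peaks count each other and are not independent, so the interval is too narrow. All 11 peaks with a close neighbour belonged to AMPA receptor genes. Their groups held 3 peaks in gria1 (span 1.17 kb, 68 fragments), 3 in gria2 (5.00 kb, 73 fragments), 3 in gria3 (2.96 kb, 50 fragments) and 2 in gria4 (2.66 kb, 34 fragments). No peak of an NMDA or kainate receptor gene had such a neighbour. Among those genes only grin2b and grik1, with 2 peaks each, could have shown one.

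The other 9 ionotropic receptor genes held peaks in 4 cases (44.4%, 13.7 to 78.8%), an interval that includes the 34.6% of named genes in the length range. The kainate receptor gene grik3 had a promoter peak at 317 bp (3.43, 2.11 to 5.32) and one 142 kb in (4.57, 2.73 to 7.25). Its partner grik4 had peaks at 1.05 kb (4.23, 2.77 to 6.21), 44.4 kb (4.04) and 187 kb (3.20). The NMDA receptor genes grin3a (3.98, 2.63 to 5.81, 779 bp upstream) and grin2d (3.47, 1.87 to 5.97, 133.9 kb in) had 1 peak each. Start and deep positions thus both occurred among these genes too. Those without a listed peak included grin2c, grin3b, grik5 and grid1.

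Genes whose products work with these receptors, and inhibitory receptor genes, were counted by list, and the intervals of their shares overlapped one another. Median RefSeq length also differed between lists, from 31.1 kb (synthesis, loading and uptake) to 179 kb (metabotropic receptors). Among these lists, genes for proteins that anchor and traffic receptors had the highest share, 16 of 26 (61.5%, 40.6 to 79.8%). Peaks were listed for 29.9% of all named genes and 34.6% of those in the length range of the 9 receptor genes. The highest folds were at the scaffold gene dlg2 (7.03, 4.38 to 10.8, 190.1 kb in), the ATPase gene nsf (5.90, 4.43 to 7.70, 9.15 kb upstream) and the kinase gene camk2d (5.18, 3.52 to 7.36, 76 bp in). The nsf peak was also paired with arf3. Auxiliary subunits of AMPA and kainate receptors had peaks in 6 of 14 genes (42.9%, 17.7 to 71.1%), an interval that includes the shares of both gene backgrounds. The highest fold was at shisa9 (5.50, 3.37 to 8.52, 35.4 kb in). Next came cnih2 (5.41, 3.92 to 7.30, 8.56 kb upstream, also paired with sf3b2). Then came cacng2, which encodes stargazin (5.12, 3.32 to 7.58, 788 bp upstream, also paired with eif3d). All 6 of these auxiliary genes had a promoter peak, though not always as their highest. Outside the 9 receptor genes, 3622 of 5277 gene entries with a peak had a promoter peak.

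Metabotropic glutamate receptors, which signal through G proteins, had peaks in 3 of the 7 genes matched to the reference table (42.9%, 9.90 to 81.6%). They were grm5 (5.78, 3.71 to 8.62, 80.1 kb in), grm2 (3.77) and grm7 (3.72). Genes for glutamate synthesis, vesicle loading and uptake had 3 of 10 (30.0%, 6.67 to 65.2%). They were the vesicular transporter genes slc17a7, with 5 peaks (highest 4.92, 2.93 to 7.80), and slc17a6 (2.63), and the glial transporter gene slc1a2 (3.37). The inhibitory GABA-A and glycine receptor subunits had 5 of 17 (29.4%, 10.3 to 56.0%), close to the 29.9% of all named genes. The highest fold was at gabra2 (4.69), and glra2 had 3.83.

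**Figure D5:**
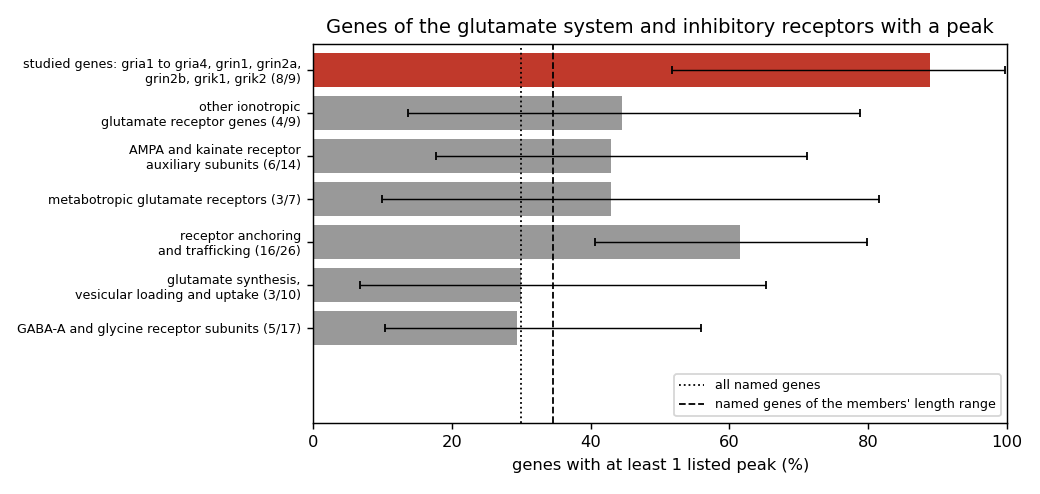
Bars give the share of genes with at least 1 listed peak in the receptor and glutamate signalling lists, cell type markers left out, with exact 95% binomial intervals; the dotted line marks all named genes (29.9%) and the dashed line those in the length range of the 9 receptor genes (34.6%). The 9 receptor genes stand at 88.9%, anchoring and trafficking genes at 61.5%, and inhibitory receptor subunits stand at 29.4%.

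Markers of cell types were counted to check the labelled tissue, although a peak does not measure expression. Neuronal markers had peaks in 7 of 10 genes (70.0%, 34.8 to 93.3%), with the highest folds at snap25 (6.57), tubb3 (6.41) and stmn2 (5.38). Markers of astroglia and radial glia had 1 of 8 (12.5%, 0.316 to 52.7%), slc1a2. None of 8 oligodendrocyte markers (interval up to 36.9%) and none of 7 microglia markers (up to 41.0%) had a listed peak. The astroglia, oligodendrocyte and microglia intervals all include the 29.9% of all named genes, and each overlaps the neuronal one. Median RefSeq length was 59.8 kb for the neuronal markers and 18.2 to 27.3 kb for the other marker lists. Marker genes absent from the reference table were not counted.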

How the data were processed

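The data were the authors' deposited list of TR ChIP peaks, each paired with genes from 10 kb upstream to the gene end, from 1 TR ChIP and 1 input library. Per the submitters' processing notes, tools included fastp 0.20.1, BWA 0.7.17, SAMtools 1.13, Picard 2.18.2 and MACS2 2.2.6; the build and peak threshold are not given in the sources used here. The deposited enrichment is a linear fold ratio, the deposited significances are −log10 p and adjusted p-values, and the deposited score is the latter times 10, rounded down. The fold was read as ChIP fragments plus 1 over background plus 1. Total depth is unknown.

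Genes were named from the deposited NCBI number, or from the deposited name where a database other than HGNC was given as the source of its description. RefSeq symbols and gene lengths (UCB_Xtro_10.0, a different build) were used, and no coordinates. ChIP fragments were solved from fold and p-value for all 6302 peaks (largest misfit 2.48e-05 in −log10 p, tolerance 0.0001), a step tested on simulated data. Distances run from summit to deposited gene start, and gene models give no exons. Python 3.11.15, pandas 2.3.3 and SciPy 1.17.1 were used.

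The members and lists were chosen with earlier results of these data known. All peaks of the 9 genes were named, and in other lists the 3 genes with the highest folds; other names were added after their values were seen, and some genes are not reported here. Groups came from the antibody label.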

Additional observations from a re-analysis of the deposited data

Results flagged for a closer look

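Some peaks near the receptor genes were paired with no gene and entered no count by gene. Within 100 kb of the deposited models, such peaks numbered 2 before the start of grin2b, 1 before the start and 1 past the end of gria1, and 1 past the end of gria2. The surroundings of grin2a were not searched, since it had no row and so no deposited position. The grin2b pair lay on chromosome 4, at 104339543 to 104339923, 10.8 kb before the deposited start (fold 4.84, 2.93 to 7.58; 17 ChIP fragments), and at 104413432 to 104413726, 84.6 kb before it (3.20, 1.85 to 5.23; 14 fragments). Both distances are shorter than the 115 kb by which RefSeq's grin2b exceeds the deposited model, and whether they fall inside the full gene was not tested. Around gria1, folds were 4.91 (3.16 to 7.32) at 96.3 kb before the start and 3.79 (2.39 to 5.76) at 5.33 kb past the end. The peak 41.1 kb past the end of gria2 had a fold of 3.89 from 22 fragments. These drew attention because they are signal over the input-derived background in entries that no comparison of genes used.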

How the results depend on the processing

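Keeping only peaks at or above the median −log10 adjusted p-value left 4 of the 9 genes, 6 of the 19 peaks and 0 of the 8 deep intragenic peaks, with 19.0% of all named genes. The strongest 1000 peaks left 0 of the 9 genes, 0 peaks, 0 promoter peaks and 0 deep intragenic peaks, with 7.68% of named genes. A promoter window of 2.5 kb gave 6 promoter peaks, against 3. Restricting to genes whose deposited length lay within 10% of RefSeq's, an alternative chosen after seeing the data, left 4 deep intragenic peaks. The share of all named genes was 26.4% with summits in the gene body or within 1 kb of the start, and 24.7% when a peak counted for 1 gene alone, that of the closest start. The other 30 recomputed totals, medians and shares stayed within 1.5 times the reported count or, for medians and shares, within the range of the peaks or the interval of the share. Of counts for single genes, 17 moved further and 28 did not. By deposited names gria2 had 0 peaks and grik1 4, without the upstream region grin1 had 0, and the others came from keeping stronger peaks only. With either set of stronger peaks no deep intragenic median could be given, nor a promoter median with the strongest 1000. No paired analysis was possible because each group has 1 sample. Every fold of the 9 genes rests on at most 34 ChIP fragments from 1 library.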
